A study of Mus musculus with 8 samples.

Results

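The genes that make, clear, carry and sense retinoic acid were followed in RNA recovered with DAZL, an RNA-binding protein of germ cells, from fetal mouse gonads. The members were all probes on the array that were not controls and that carried the name, or an older name, of 1 of 10 genes: the clearing enzymes Cyp26b1 and Cyp26a1, the synthesis enzymes Aldh1a1, Aldh1a2 and Aldh1a3, the receptors Rara, Rarb and Rarg, and the carriers Crabp1 and Crabp2. They were 10 of 19694 genes named on the array, with 15 of its 41174 probes. In an RNA immunoprecipitation a protein is fished out of cell extract with an antibody, and the RNA attached to it (the IP) is set beside RNA of the extract (the input). Lots of 50 gonads from XX or XY embryos of the MCH strain at E14.5 were lysed, 5% of the supernatant was set aside for the input, and the rest was incubated with beads carrying an anti-Dazl antibody. The groups were XX input, XX IP, XY input and XY IP, with 2 1-colour Agilent arrays each. No group was given a drug or carried a mutation according to the labels, each lot pooled gonads of many embryos, and a mock precipitation was not analysed here, which makes the input the one reference for recovery. The labels number the arrays of a group as replicates without saying that they came from separate lots, so p-values measure only the spread between these samples, which may be technical.

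Retinoic acid is a vitamin A derivative that diffuses between cells. Retinol is oxidised to retinal by dehydrogenases, the ALDH1A enzymes oxidise retinal to retinoic acid, cellular binding proteins carry it, and nuclear receptors of the RAR family, paired with RXR partners, bind it and switch genes on or off. The CYP26 enzymes break it down. In the fetal gonad it is best known for its link to the onset of meiosis: ovarian germ cells turn on Stra8 and enter meiosis in the presence of retinoic acid, while somatic cells of the fetal testis make Cyp26b1, which clears it.

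RAR and RXR pairs bind direct repeats of a short half-site, and genes that carry such a repeat close to the start site are classical reporters of the pathway. Of the 10 genes, 8 had promoter windows from 250 bases before to 50 bases after a start site in the RefSeq table of build GRCm38.p6 (13 windows). These were searched on both strands for half-sites spelled AGGTCA (the common form), with GGGTCA also allowed, and so were AGTTCA and the remaining form GGTTCA, repeated in the same direction with any 5 bases between. The repeat was found in 2 of the 13 windows, those of Rarb and Cyp26a1, and in 32 of all 32851 windows (0.0974%). Both are shown because theirs were the windows with a match, and both genes are known to be turned on by retinoic acid. The half-sites are in capitals and each is read 5′ to 3′ on the strand that holds the match.
Rarb, chr14:16575513-16575529, on the gene's own strand: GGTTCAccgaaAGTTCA
Cyp26a1, chr19:37697776-37697792, on the opposite strand: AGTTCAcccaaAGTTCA
Counted along the gene's own strand, the most upstream base of the repeat lay at position -53 from the start site in Rarb and at -32 in Cyp26a1. A match of letters is a description of the window and not a measured binding site.

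Levels are given as normalized log2 signal, which is the log2 of an array's processed signal minus the 75th percentile of that array's probes. A probe was tested when the scanner software marked it well above background in the 2 arrays of some group, and 6 of the 15 probes passed, 1 each for Cyp26b1, Aldh1a1, Aldh1a2, Aldh1a3, Rarb and Crabp1. The passing probes do not stand for all members, since a gene could pass through the group in which it was high. Inputs were measured more deeply than IPs: 16713 to 20391 probes were well above background on an input array and 6068 to 9468 on an IP array, for which 1 ng of RNA was labelled against 50 ng for an input. The lowest level well above background was -3.59 to -2.34 on the XX inputs and -3.15 to -2.78 on the XY inputs, but 0.28 to 1.02 on the XX IPs and 0.03 to 0.91 on the XY IPs. A transcript at the input level of Rarb or Crabp1 could therefore be followed in the inputs and was out of reach in the IPs unless it was enriched. The XX arrays were all on 1 slide with 1 scan time and the XY arrays on another, and in any comparison of the sexes the effect of the slide cannot be told apart from that of sex. As a check of the antibody, both probes of Dazl were enriched in both IPs, the brighter one by 2.69 on the log2 scale in XX and by 2.06 in XY.

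An IP call, enriched or depleted, required 4-fold or more together with an adjusted p under 0.05 from limma's moderated test, with the Benjamini-Hochberg adjustment over 18265 probes. Of the 6 tested members, 1 was called enriched in the XX IP, where 14.1% of all tested probes were, and 1 was called depleted, where 9.91% were. In the XY IP 0 of 6 were called enriched and 0 of 6 depleted by limma, against 10.2% and 7.68% of all tested probes. At an unadjusted p under 0.05 and any fold, 1 was higher and 2 were lower, against 4448 and 4639 of all 18265 tested probes. By the adjusted p alone, at any fold, 1 was higher and 2 were lower in the XX IP (25.9% and 22.8% of all tested probes), and 0 were higher and 1 was lower in the XY IP (20.2% and 20.6%). The median change of the 6 was 0.68 in XX and -0.75 in XY, beside 0.09 and -0.03 over all tested probes. The middle values behind these medians include Crabp1 in XX and Aldh1a3 in XY, each with IP signals at background. The medians thus do not measure the recovery of the members as a set.

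**Figure D1:**
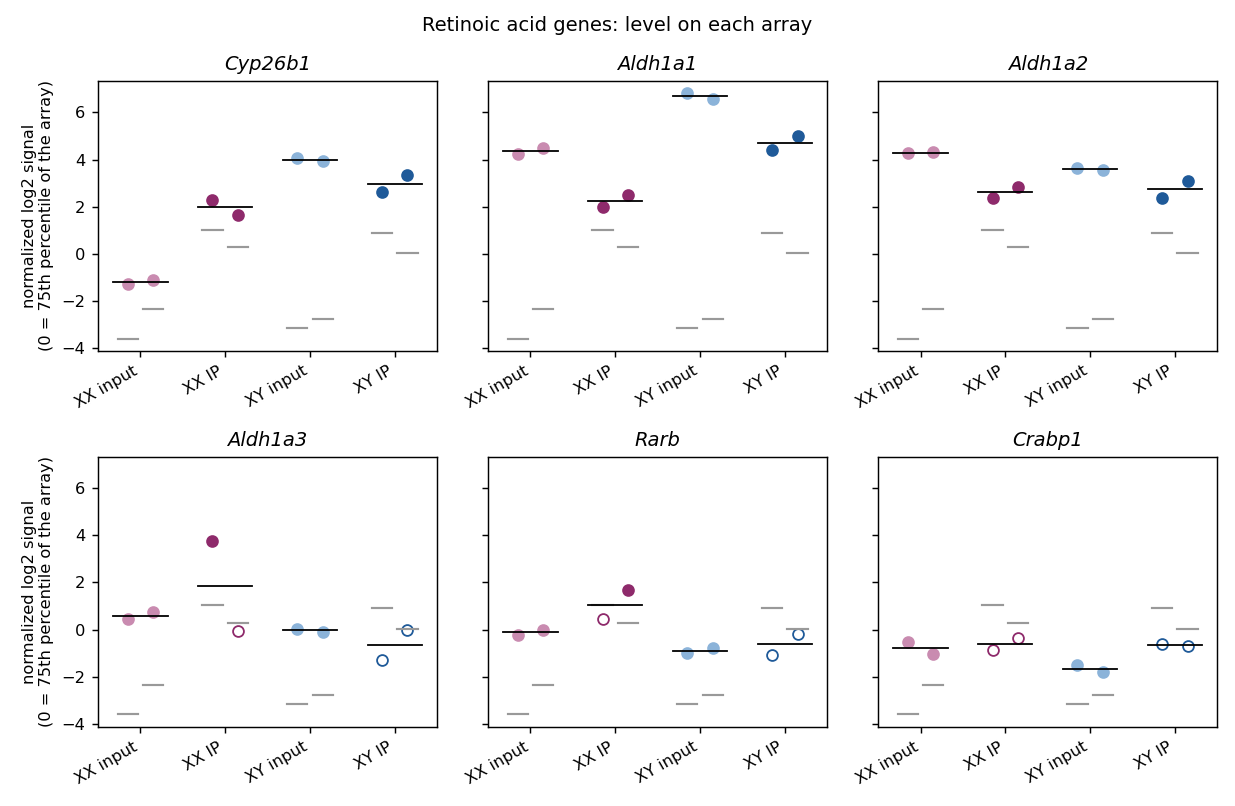
Normalized log2 signal (0 is the 75th percentile of the array) of the 6 tested probes on each of the 8 arrays. Filled points were well above background and open points were not, black lines are group means, and the short grey lines mark the lowest level well above background on each array. Cyp26b1 in the XX input (-1.26 and -1.10) lies far below its XY input (4.05 and 3.93), while its IP levels are closer together.

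Cyp26b1, the retinoic acid hydroxylase of the fetal testis, was the member that changed most. It was 36.0-fold lower in the XX input than in the XY input, yet it was enriched 8.98-fold over input in the XX IP and was not enriched in the XY IP. Its probe (A_51_P501844, chr6:84537616-84537675 of mm8, minus strand) was well above background on all 8 arrays. The normalized log2 signal was -1.26 and -1.10 in the XX inputs, 2.31 and 1.67 in the XX IPs, 4.05 and 3.93 in the XY inputs, and 2.62 and 3.33 in the XY IPs. No array of the XX IP overlapped the XX inputs, and both XY IPs lay under both XY inputs. The group means were -1.18 ± 0.11, 1.99 ± 0.45, 3.99 ± 0.08 and 2.97 ± 0.51 in the same order (SD, n = 2).

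The recovery of Cyp26b1 was 3.17 on the log2 scale in XX (SE 0.42, adjusted p = 0.000203). In the XY gonads it was -1.02 with the same SE (adjusted p = 0.0724, 95% interval -1.94 to -0.10 before adjustment). The difference between the sexes in recovery was 4.18 (SE 0.60, adjusted p = 0.00464), and it was called for 1 of the 6 members, where 2.18% of all tested probes were higher in XX and 1.12% lower. The XX input was below the XY input, with a log2 difference of -5.17 (SE 0.42, adjusted p = 1.6e-05). Both differences rest on the same input arrays. Among the 4206 probes that were well above background on all 8 arrays, Cyp26b1 was 1st from the top in the difference in recovery and 1st from the bottom in the difference of the inputs, and its recovery in XX was 382nd from the top. Among all 18265 tested probes these ranks were 71st, 57th and 823rd. The smaller set leaves out every probe at background on any array, so Cst9 and Dhh, for example, are not in it. The IP levels themselves differed far less than the inputs, by means of 1.99 in XX and 2.97 in XY.

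The call of enrichment in XX depended on the scaling. It was lost when the arrays were scaled to the 50th percentile (1.16, adjusted p = 0.0992), a scaling that put the median of all tested probes at -1.92, and with a normexp background correction (1.00, adjusted p = 0.00262, under 4-fold). Relative to the median of all tested probes the recovery in XX was 3.08 to 3.67 under the 4 scalings tried, that in XY -0.98 to -0.30, and the difference in recovery 4.04 to 4.15. The XY recovery itself was -2.88 with the 50th percentile scaling and was then called depleted (adjusted p = 0.00446), with the median of all tested probes at -1.90. With normexp the difference in recovery was 1.69 and kept its call (adjusted p = 0.00795). With the 50th percentile scaling the difference in recovery was 4.04 and lost its call (adjusted p = 0.108). Without limma's moderation of the variances both calls were lost as well, at an adjusted p = 0.108 each.

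Because Cyp26b1 is made by somatic cells of the fetal testis, marker genes of those cells were read beside it. Of 5 Sertoli cell markers (Sox9, Amh, Dhh, Cst9 and Fgf9), 4 were lower in the XX than in the XY input, as were 4 of 4 fetal Leydig cell markers with a probe (Cyp11a1, Cyp17a1, Hsd3b1 and Star). Germ cell markers differed between the inputs in both directions. Of 5, 3 were called lower in the XX input, Dnd1 at -4.33, Dppa3 at -4.19 and Pou5f1 at -3.70 on the log2 scale, beside -5.17 for Cyp26b1. Ddx4 read -0.19 (adjusted p = 0.845), and Dazl read 1.22 by its brighter probe (adjusted p = 0.0672) and 1.54 by the dimmer one, which was called higher (adjusted p = 0.0225). The summed linear level of the Sertoli markers, in units of the array's 75th percentile, was 1.46 to 1.61 in the XX inputs and 156.7 to 192.8 in the XY inputs. In a bulk lysate fewer cells of a type and less RNA per cell cannot be told apart.

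In the XX IP, where both Cyp26b1 signals were well above background, 5 of 5 Sertoli markers and 4 of 4 Leydig markers were well above background on neither. By the leading probes, Sox9, Cst9, Cyp17a1 and Hsd3b1 were well above background on both XX inputs. The others were so on 1 XX input at most. Only Hsd3b1, at 0.83 and 0.82 in the XX inputs, exceeded the lowest level well above background on an XX IP array (0.28 on the second). All the rest, Sox9, Cst9 and Cyp17a1 included, could not have been seen in the XX IP without enrichment. The summed Sertoli level there was 2.28 to 2.72, a sum of values at background. Cst9, a secreted protein of Sertoli cells, had an XX input level of -0.79 and -1.60, and its XX IP signals of -0.99 and -1.69 were not well above background. Sox9, the transcription factor that sets Sertoli cell fate, read -0.70 and -0.67 in the XX inputs and -0.69 and -1.30, not well above background, in the XX IPs. Of 5 mesonephros markers, Pax2 and Pax8 were well above background on no array, and 3 were tested. By their leading probes, Emx2 and Cdh16 were well above background on both XX inputs and at background on both XY inputs. They were called higher in the XX input (fitted log2 differences of 1.94 and 2.29), at least 2.04-fold and at least 2.47-fold. Lhx1 was well above background on 1 XX and both XY inputs. In the IPs the list was well above background on 1 array, with the leading Emx2 probe at 1.63 on the first XX IP and -0.05 at background on the second. That probe was called enriched in XX (2.73), while a second Emx2 probe read -1.55 there with both IP signals at background.

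In the XY IP, Cst9 read 5.60 and 6.58 against 7.37 and 6.97 in the XY inputs, and Sox9 read 1.64 and 1.99 against 1.88 and 1.78. The recovery of Cst9 in XY was -1.08 (SE 0.48, adjusted p = 0.0921) and that of Sox9 was -0.02 (SE 0.40, adjusted p = 0.972), beside -1.02 for Cyp26b1. Other markers of these cells were depleted in the XY IP by their leading probes, where 7.68% of all tested probes were. These were 1 of 5 Sertoli markers (Dhh at -3.40) and 2 of 4 Leydig markers (Cyp17a1 at -4.03 and Hsd3b1 at -2.18). Cyp11a1 read -3.19 by its leading probe (adjusted p = 0.056). A dimmer Cyp11a1 probe was called at -2.32 (adjusted p = 0.00136), and both had XY IP signals at background. The difference in recovery between the sexes was called higher in XX for 2 of the 5 Sertoli markers and 2 of the 4 Leydig markers by their leading probes. The dimmer Cyp11a1 probe was called too (5.22), with all its XX signals at background. All of those were at background in the XX IP, unlike Cyp26b1, and the Sertoli ones, Amh and Dhh, were at background in the XX input too, so their XX side compares background with background. Their part in the Cyp26b1 result beyond these values was not tested.

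**Figure D2:**
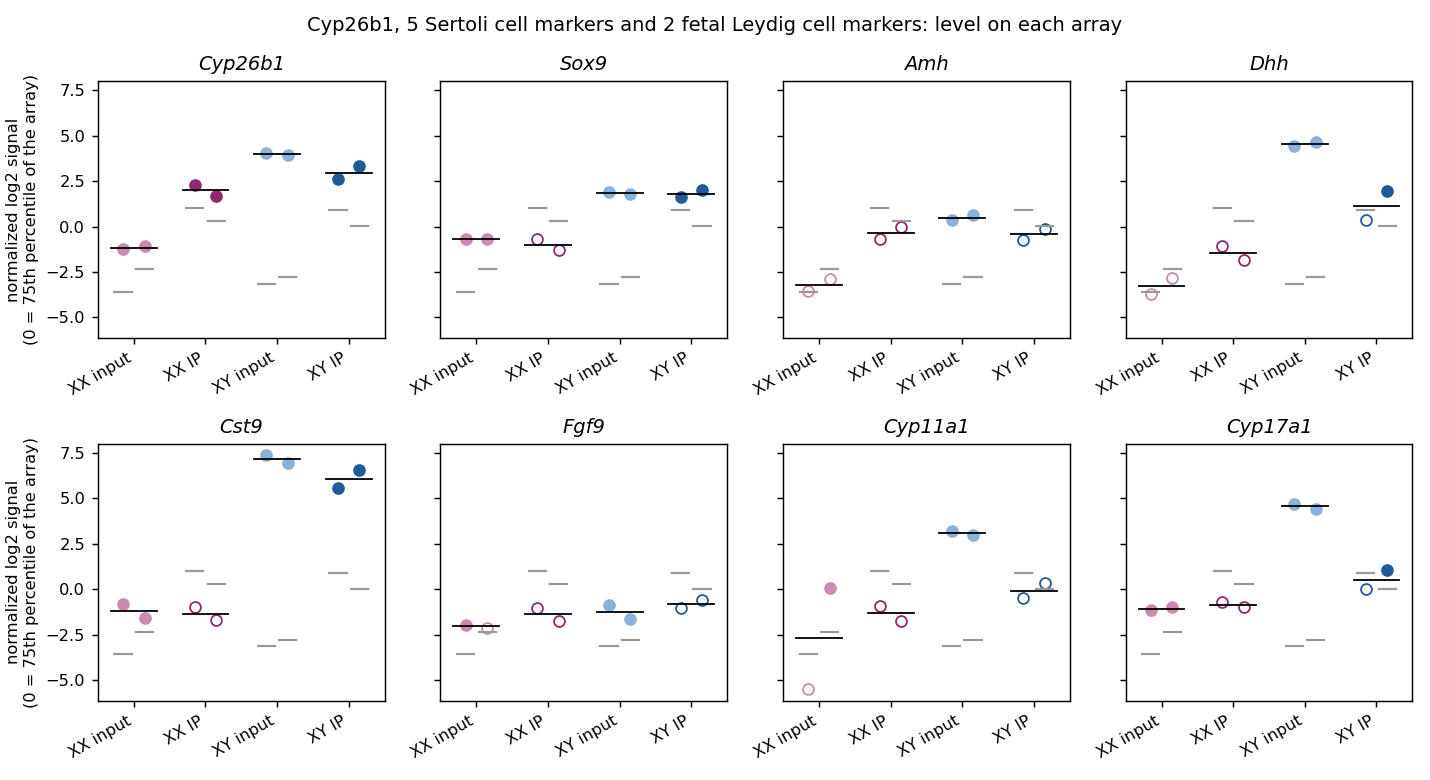
Normalized log2 signal (0 is the 75th percentile of the array) on each array for Cyp26b1, the 5 Sertoli cell markers and 2 of the 4 Leydig cell markers. Filled points were well above background, open points were not, black lines are group means and grey lines the lowest level well above background. Cyp26b1 is the panel with filled points in the XX IP (2.31 and 1.67).

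Cyp26a1, a clearing enzyme that retinoic acid itself induces and whose promoter window holds the repeat shown above, was well above background on 1 array, an XY input at -2.51. The other XY input read -3.21 and the XX inputs -3.92 and -4.43, none well above background. Its 4 IP signals ran from -2.26 to -0.38 and were not well above background either. The probe (A_52_P382149, chr19:37766220-37766279 of mm8, plus strand) was not tested.

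Of the synthesis enzymes, Aldh1a1 and Aldh1a2 were bright in the inputs and fell in the XX IP, and Aldh1a1 fell in the XY IP as well. In XX, 8.25% of all tested probes had a lower recovery than Aldh1a1 and 14.4% a lower one than Aldh1a2. Aldh1a1 was also 4.99-fold lower in the XX than in the XY input.

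Aldh1a1 (A_51_P334942, chr19:20710371-20710430 of mm8, plus strand) oxidises retinal in many adult and fetal tissues. It read 4.24 and 4.51 in the XX inputs, 1.98 and 2.51 in the XX IPs, 6.81 and 6.58 in the XY inputs, and 4.42 and 5.00 in the XY IPs. Both IPs lay under their inputs with no overlap, and every XX array lay under its XY counterpart. The recovery in XX was called at -2.13 (SE 0.41, adjusted p = 0.00152). The XY value of -1.99 (SE 0.41, adjusted p = 0.00315) fell just short of the limit at 3.96-fold. The difference in recovery between the sexes was -0.15 (SE 0.58, adjusted p = 0.94). Its 95% interval before adjustment was -1.42 to 1.12, so differences of either sign within it were not excluded. The log2 difference of the inputs was -2.32 (SE 0.41, adjusted p = 0.00278), which made it 1 of 2 members called lower in XX with Cyp26b1, where 6.1% of all tested probes were lower and 5.87% higher. The call in XX was lost without XX input replicate 2 (-2.00) or without XX IP replicate 1 (-1.86), and the call in XY was gained without XY input replicate 2 (-2.10) or without XY IP replicate 2 (-2.28). With the 50th percentile scaling the difference of the inputs was -2.29 and lost its call (adjusted p = 0.0817), as it did without limma's moderation of the variances (adjusted p = 0.0534). The call of depletion in XX was lost with normexp (-1.60, under 4-fold) and without the moderation (adjusted p = 0.115).

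A neighbour of Aldh1a1 on chromosome 19, Aldh1a7, is a close paralog whose transcript a probe can fail to separate from it. It was looked at after the values were known. Its probe (A_51_P383399) read 0.91 and 1.17 in the XX inputs and 1.97 and 1.64 in the XY inputs, and was well above background on no IP array. It was at least 1.31-fold lower than input in the XX IP and at least 2.52-fold lower in the XY IP (adjusted p = 0.00129 and 0.00211 in limma's fit). The probe sequences were not used here, so how far either probe reads the other transcript was not tested.

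Aldh1a2 (A_52_P58145, chr9:71094684-71094743 of mm8, plus strand) is the main retinoic acid synthase of the embryo, active in the mesonephros beside the gonad. It read 4.27 and 4.32 in the XX inputs, 2.37 and 2.85 in the XX IPs, 3.65 and 3.57 in the XY inputs, and 2.36 and 3.10 in the XY IPs. IP and input did not overlap in either sex, while the IPs of the sexes overlapped. The recovery in XX was -1.68 (SE 0.41, adjusted p = 0.00588), 3.21-fold and so under the 4-fold limit. Among XY gonads it was -0.88 (SE 0.41, adjusted p = 0.109). The difference between the sexes was -0.80 in recovery (adjusted p = 0.564) and 0.68 in the inputs (adjusted p = 0.376), both with a wide interval, -2.08 to 0.47 and -0.22 to 1.58 before adjustment.

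Aldh1a3 had a bright probe (A_52_P87843, chr7:66269849-66269908 of mm8) and a second one well above background on no array. The bright probe read 0.45 and 0.75 in the XX inputs and 0.05 and -0.10 in the XY inputs. The 2 XX IPs disagreed, with 3.74 well above background on the first and -0.08 at background on the second, and the XY IPs read -1.28 and -0.03 at background. The fitted recovery in XX was 1.24 (SE 0.91, adjusted p = 0.276), and the -0.63 of XY (adjusted p = 0.606) rests on IP signals at background. A single array decided it: without XX IP replicate 2 the recovery in XX was 3.15 and the difference between the sexes 3.77, both called, and without XX IP replicate 1 the values were -0.67 and -0.05.

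The receptors were dim. Of the 7 probes of Rara, Rarb and Rarg, 1 was tested, the Rarb probe A_51_P202440, which the array carries on 10 spots. Rarb is a receptor gene that retinoic acid induces. It read -0.22 and 0.00 in the XX inputs and -1.01 and -0.80 in the XY inputs, so the XX inputs were the higher ones without overlap, with a log2 difference of 0.79 (SE 0.49, adjusted p = 0.387). In the XX IPs it read 0.45 at background and 1.67 well above background, and in the XY IPs -1.07 and -0.17 at background. The recovery in XX was 1.17 (SE 0.49, adjusted p = 0.0661), resting on 1 of 2 IP arrays, and the fitted 0.28 in XY compares input with background.

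The Rarb probe lies on the minus strand at chr14:15224264-15224323 of mm8, close to a probe of Top2b, a DNA topoisomerase gene read from the plus strand, at chr14:15223910-15223969. That Top2b probe, chosen after its values were seen, read 5.58 and 5.78 in the XX inputs, 7.22 and 6.62 in the XX IPs, 4.63 and 4.68 in the XY inputs, and 3.62 and 3.61 in the XY IPs. Whether RNA of one gene reaches the probe of the other was not tested. The second Rarb probe, whose ends lie on both sides of an interval of genomic sequence, was well above background on no array.

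The Rara probe was well above background on no array. Of 4 Rarg probes, A_51_P372858 was well above background on 1 XY input (-2.31), A_51_P372853 on 1 XX input (-3.28) and A_52_P26409 on 1 XX input (-2.89), and A_52_P380418 on none. All 3 of these signals were on input arrays. Over the 9 untested member probes the signals not well above background ran from -5.78 to -3.21 in the XX inputs and from -2.00 to 0.65 in the XX IPs. For such probes a difference of IP and input compares background with background, and no recovery is given.

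Of the carriers, which shuttle retinoic acid inside cells, Crabp1 (A_52_P185907, chr9:54566522-54566581 of mm8, plus strand) was seen in the inputs and not in the IPs. It read -0.54 and -1.05 in the XX inputs and -1.50 and -1.80 in the XY inputs, a log2 difference of 0.85 (SE 0.40, adjusted p = 0.228). The IP signals were -0.86 and -0.34 in XX and -0.59 and -0.69 in XY, all at background, and all input levels lay under the lowest level that an IP array marked. A Crabp1 level at or below that of the input was thus not detectable in the IPs at this depth, and the fitted values of 0.20 in XX and 1.01 in XY (adjusted p = 0.709 and 0.0656) compare input with background. The Crabp2 probe was well above background on no array.

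**Figure D3:**
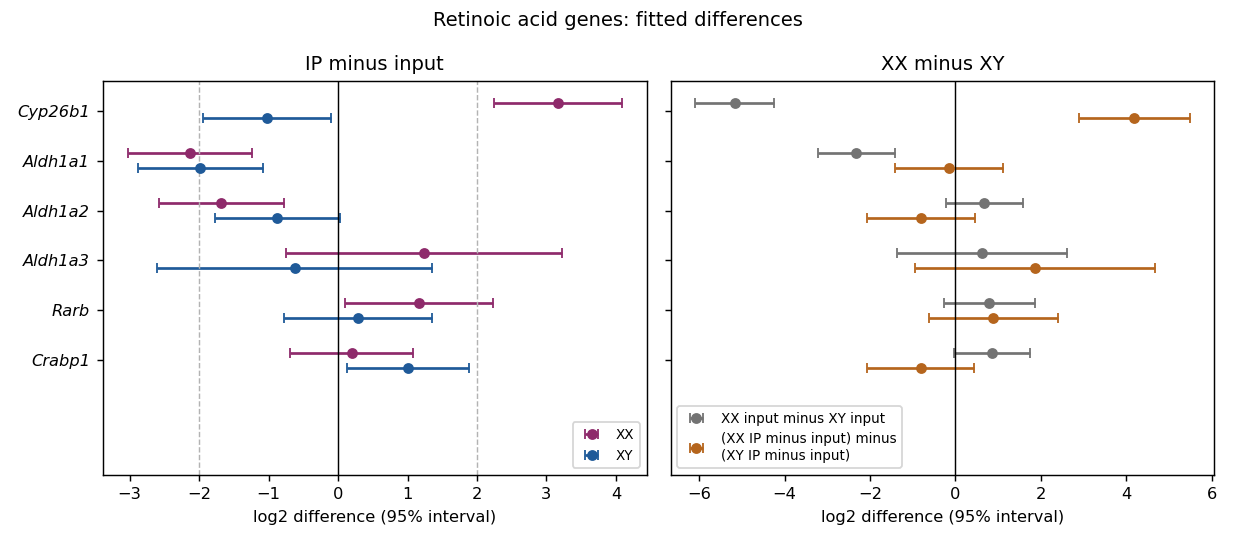
Fitted log2 differences of the 6 tested members with 95% intervals before adjustment. The left panel shows IP minus input in XX and XY, with dashed lines at 4-fold, and the right panel the XX minus XY difference of the inputs and of the recoveries. Cyp26b1 stands at 3.17 and -1.02 on the left and at -5.17 and 4.18 on the right.

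To place the members in their pathway, 30 further genes of retinoid biology were read, of which 29 had a probe and 20 a tested one. A gene was represented by its brightest tested probe. In the XX IP 1 of the 20 was enriched and 4 were depleted, where 14.1% and 9.91% of all tested probes were. In the XY IP 1 was enriched and 2 were depleted, where 10.2% and 7.68% were. In the difference of recoveries 0 of 20 were called in either direction by limma, where 2.18% of all tested probes were higher and 1.12% lower. At an unadjusted p under 0.05, 3 were higher and 1 was lower, against 1856 and 1143 of all 18265 tested probes. The median recovery of the 20 was -0.38 in XX and -0.54 in XY.

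Of the 7 tested genes for retinol handling upstream of the ALDH1A enzymes, Dhrs3, Adh1 and Adh5 were called depleted in XX and Dhrs3 and Adh1 in XY. The XX call of Adh1 compares the input with IP signals at background. Dhrs3, which reduces retinal back to retinol, read 2.07 and 1.84 in the XX inputs and 1.26 and 1.28 in the XY inputs and was at background in all IPs. It was at least 2.46-fold lower than input in XX and at least 1.74-fold lower in XY (adjusted p = 0.000164 and 0.000666). A dimmer second Dhrs3 probe, also at background in all IPs, read -1.19 in XX and -1.14 in XY (adjusted p = 0.035 and 0.0473) and was called in neither.

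Adh1, an alcohol dehydrogenase that oxidises retinol, read 0.76 and 0.56 in the XX inputs and 4.98 and 4.48 in the XY inputs. It was 16.8-fold lower in the XX than in the XY input, the only called gene of the pathway list in that direction, and a second probe gave 19.6-fold. The XY IPs read 2.15 and 2.92, a recovery of -2.20 (SE 0.45, adjusted p = 0.00294). The XX IPs were at background, at least 1.00-fold lower than input, which sets no limit on the recovery in XX, and the second probe read -0.06 there (adjusted p = 0.915). Adh5, an alcohol dehydrogenase found in nearly all cells, was recovered at -2.06 in XX, which was called, and at -1.94 in XY, just under 4-fold (SE 0.44 each, adjusted p = 0.0028 and 0.00524).

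Among genes known to respond to retinoic acid, Stra8, the gatekeeper of meiosis, was the 1 pathway gene enriched in both sexes. It read 6.88 and 6.96 in the XX inputs, 8.60 and 9.46 in the XX IPs, 0.28 and 0.73 in the XY inputs, and 2.75 and 3.98 in the XY IPs. The recovery was 2.11 in XX and 2.86 in XY (SE 0.49 each, adjusted p = 0.00439 and 0.00112), with a difference of -0.75 (SE 0.70, adjusted p = 0.673). Stra8 was 85.2-fold higher in the XX than in the XY input (adjusted p = 1.02e-05), and Rec8, a meiotic cohesin subunit, was 6.31-fold higher (adjusted p = 0.000822), the 2 genes of the list called in that direction. A dimmer second probe of Rdh10, a retinol dehydrogenase, was 2.91-fold higher in the XX input as well (adjusted p = 0.036), while its brighter probe gave 2.01-fold (adjusted p = 0.177).

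Stra8 and Cyp26b1 thus differed between the inputs in opposite directions, by 6.41 and -5.17 on the log2 scale, and both were enriched in the XX IP. In the XY IP Stra8 was enriched and Cyp26b1 was not. Tgm2, a transglutaminase induced by retinoic acid, was depleted in the XX IP at -2.21 (SE 0.46, adjusted p = 0.00222) and read -1.10 in XY (adjusted p = 0.0738). Rec8 was recovered at -1.14 in XX (adjusted p = 0.0308, under 4-fold) and -0.36 in XY (adjusted p = 0.48).

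Of 3 RXR partners and 5 co-regulators, all tested, 0 reached a call in either IP by the brightest probe (limma). At an unadjusted p under 0.05 and any fold, 0 of the 3 partners differed in either IP. Of all 18265 tested probes, 5360 were higher and 4834 lower in XX by that measure, and 4448 and 4639 in XY. By the adjusted p alone 2 of the 5 co-regulators passed in XX, the coactivators Ncoa1 at 1.04 and Ncoa2 at 1.50. In XY 1 passed, the corepressor Ncor1 at -1.57 (adjusted p = 0.0118). By the same rule 25.9% of all tested probes were higher in XX and 20.6% were lower in XY. A second, dimmer Ncoa2 probe was called in XX at 2.52 (adjusted p = 0.000546), with both of its IP signals at background, so the probes disagree in the call in XX. In XY they disagree in direction, at -0.33 for the brighter and 1.93 for the dimmer one (adjusted p = 0.574 and 0.00352), with the IP signals of both at background.

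**Figure D4:**
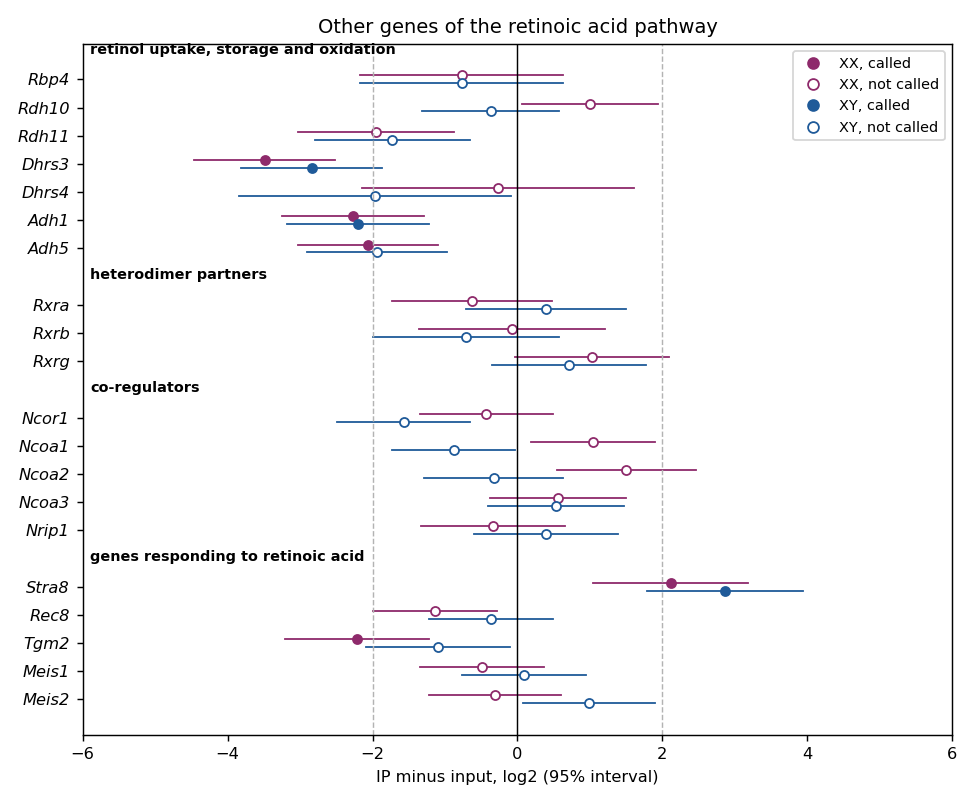
IP minus input on the log2 scale in XX and XY for the 20 tested genes of the wider pathway list, 1 probe per gene, with 95% intervals before adjustment and dashed lines at 4-fold. Filled points were called and open points were not. Stra8 (2.11 and 2.86) is filled on the right, and Dhrs3 and Adh1 are filled on the left in both sexes, the XX point of Adh1 and both points of Dhrs3 with IP signals at background.

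The probes whose levels followed a member most closely over the 8 arrays were looked up for the 3 members above background on all of them, by Pearson's r among 4206 probes. Closest to Cyp26b1 was Cbln1, a secreted protein best known from cerebellar synapses (r = 0.933), then Acsl4 (0.927) and Hspa4l (0.910). Cbln1 had group means of -0.29 (XX input), 1.68 (XX IP), 4.82 (XY input) and 4.38 (XY IP). For Aldh1a1 they were Akr1b3 (0.989), Gstm3 (0.988) and Ehd1 (0.986), and for Aldh1a2 Acot1 (0.997), Snrnp70 (0.992) and Dhrs7 (0.989). The 8 points of each correlation fall into 4 groups on 2 slides, so these values describe which group pattern is shared and carry no test.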

How the data were processed

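Input and anti-Dazl IP RNA of XX and XY gonads was measured on 8 1-colour Agilent arrays (4 groups of 2). The deposited scanner files give processed signal intensities, mean intensities and local background intensities per spot, made by the authors with Agilent's software (Feature Extraction, version 9.5.3.1 in the headers), not normalized between arrays. The deposited table of log2 values had, per the study's methods, values under 1 set to 1 and arrays scaled to the 75th percentile. Its correlation with the values used here was at least 0.99998 on every array. Here processed signals under 1 were set to 1, outlier-marked spots were dropped, spots of a probe were averaged as log2 and the array's 75th percentile was subtracted. Of 41174 probes, 73 were dropped as outliers and 18265 were well above background on both arrays of a group. No spot was saturated.

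limma 3.58.1 (R 4.3.3) fitted 1 mean per group over all 8 arrays (4 residual and 7.83 prior degrees of freedom, two-sided, Benjamini-Hochberg over 18265 probes). Calls in an IP needed an adjusted p under 0.05 and 4-fold, and other contrasts the adjusted p alone. Where a group was below background on both arrays, a bound is given for some folds and written "at least". For the bound, the level of that group was taken as the higher of its signal and the lowest signal well above background. Fitted values are printed for such groups as well. The procedure was tested on simulated data. Array number limits the precision. Alternatives were 3 other scalings, normexp, floors, filters, the deposited table, other fits, a replicate block and leaving out each array. Names come from the files and RefSeq, positions from the files (mm8), and no mm8 annotation was used, so exons are not given.

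The named genes were all probes of the 10 members, genes of the pathway list called in a contrast, and the 3 genes most correlated with each member above background on all arrays. Uncalled genes of the pathway list, Aldh1a7, Top2b and the cell markers fall outside that rule and were named after their values were seen. Among 5 germ cell markers, 2 were enriched in each IP, and no gene was depleted. Of 5 ovarian supporting cell markers, 2 were tested, and 2 were depleted in XX. Of 5 mesonephros markers, 3 were tested, and 1 was enriched in XX, above background on 1 IP array. The XY calls of Fst, Emx2 and Cdh16, enriched, compare background with background and give no recovery. Of 5 endothelial markers, 3 were tested, and 3 were depleted in XX and 0 in XY (limma, with 3 lower by adjusted p alone). The XX IP signals of these 3 and of the ovarian marker Wnt4 were at background, which bounds the folds at 1.51 to 3.08 or more, under the 4-fold limit. Of 5 erythroid markers, 4 were tested, and 2 were depleted in each sex. In XX 1 of these was Alas2, whose IP signals were at background, at least 3.17-fold lower than input and so under the 4-fold limit. Some genes of the pathway list are not reported here. Members and lists were chosen with earlier results of these data known.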

Additional observations from a re-analysis of the deposited data

Results flagged for a closer look

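The recovery of Cyp26b1 differed between the sexes by the test of the difference itself. IP minus input was 3.17 in XX and -1.02 in XY, a difference of 4.18 on the log2 scale (SE 0.60, limma adjusted p = 0.00464), with the 2 XX IPs above and the 2 XY IPs below their inputs. Since each sex had its own slide, the 2 cannot be told apart. Left out one at a time, each of the 8 arrays left a difference of 3.83 to 4.54 that was still called. It was 4.04 and not called with the arrays scaled to the 50th percentile (adjusted p = 0.108), nor was it called without limma's moderation of the variances.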

How the results depend on the processing

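Over the 6 tested members and 4 contrasts, 389 recomputed values kept direction and side of the threshold, 18 gained and 11 lost a call, and 20 changed sign, all 20 of them uncalled. Cyp26b1 kept its direction in all 4 contrasts. In XX, members called enriched numbered 0 with the 50th percentile scaling, normexp or the ordinary test, and 9 of 15 without the filter on dim probes (7 in XY), a setting in which 23328 of all 41101 probes were called enriched in XX and 22374 in XY, with medians of 2.54 and 2.38. Called depleted in XX were 2 with the 50th percentile scaling or scaling to probes above background on all arrays, and 0 with normexp or the ordinary test. In XY these were 3 with the 50th percentile scaling and 1 with scaling to probes above background on all arrays, quantile normalization or normexp. The difference in recovery was called higher in XX for 0 members with the 50th percentile scaling or the ordinary test, and lower for 1 with normexp. Over all tested probes it was called higher for 398 and lower for 204, against 18 and 9 with the 50th percentile scaling, 940 and 778 with normexp, 3 and 0 with the ordinary test, and 971 and 516 with the replicate block. In the inputs 1 was higher with normexp and 4 when only the input arrays were fitted (of all tested probes 4133 were then higher and 3930 lower, against 1072 and 1114), and 1 was lower with the 50th percentile scaling or the ordinary test. The 50th percentile scaling turned the recovery to -0.77 (Aldh1a3 in XX), -0.84 and -1.58 (Rarb in XX and XY), and -1.81 and -0.86 (Crabp1 in XX and XY). Scaling to probes above background on all arrays gave -0.045 for Rarb in XY and -0.23 for Crabp1 in XX, quantile normalization -0.65 and -0.13, and normexp -0.081 and -0.0043, with 0.53 for the difference in recovery of Aldh1a1. The ordinary test, without moderated variances, called 0 of all tested probes higher and 1 lower in the XX IP, and 10 and 2 in the XY IP. The causes were not tested.

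With each array left out in turn, called members ranged from 1 to 2 (enriched in XX), 0 to 1 (depleted in XX), 0 to 1 (depleted in XY) and 1 to 2 (difference higher in XX). Ranges that crossed 0 were -0.44 to 0.15 for the difference in Aldh1a1, -0.67 to 3.15, -1.25 to 0.0020 and -0.048 to 3.77 for Aldh1a3 in XX, in XY and in their difference, -0.17 to 0.73 for Rarb in XY and -0.066 to 0.46 for Crabp1 in XX. Over all tested probes the split in the XX IP was 2567 higher and 1810 lower, against 189 and 8646 with the 50th percentile scaling and 1480 and 3283 with quantile normalization, and in the XY IP 1863 and 1403 against 219 and 8378, and 1241 and 2481. Replicate numbers did not pair the samples (correlations of deviations 0.07 in XX, 0.09 in XY and 0.28 between inputs); with the replicate block 1 member was enriched and 1 depleted in XX and 0 in XY, with Cyp26b1 at 3.17, and no call of a member changed. Fitting only the groups of the contrast adds no other value for the difference in recovery. The IP arrays' background limits Rarb, Crabp1 and Aldh1a3.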
